A study of Mus musculus with 4 samples.

Results

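The comparison set the array labelled ALDH-high against the array labelled ALDH-low among cells taken at zeitgeber time ZT12, the hour of lights off. ALDH is aldehyde dehydrogenase. The cells came from tumours that 4T1, a mouse mammary carcinoma cell line, formed in BALB/c mice, and per the labels no drug or other treatment was given. They had been sorted by the ALDEFLUOR reaction into a fraction with high and a fraction with low activity. The 2 arrays compared are 2 of the 4 in the study, the other pair being the same sort at ZT0 (lights on). The labels do not give the number of mice behind a fraction or whether tumours were pooled. Each side was 1 one-colour Agilent array with no replicate, so no difference below could be tested and each describes these 2 arrays alone. Of 37074 features on the array (gene symbols, predicted genes, clones and noncoding loci, 1 probe each), 19784 were well above background on both ZT12 arrays and have a difference. All differences are log2, ALDH-high minus ALDH-low, after each array was scaled to its own 75th percentile of signal. Signals quoted in pairs are unscaled, the ALDH-high array first.

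ALDEFLUOR substrate diffuses into cells and is converted by ALDH enzymes to a charged fluorescent product that stays inside, and the reaction serves widely as a handle on tumour cells with stem-like traits. The activity is not private to tumour cells, since blood and stromal cells carry ALDH enzymes too. The 4T1 tumour is known for secreting G-CSF, the product of Csf3, and for filling its host with neutrophils and their precursors, so markers of blood cells were read beside those of the tumour epithelium.

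The 2 ZT12 arrays were less like each other than each was like an array of the opposite label at ZT0. Over 27237 probes well above background on all 4 arrays, the Spearman correlation across probes between the array labelled ZT12 ALDH-high and that labelled ZT0 ALDH-low was 0.976, and between ZT12 ALDH-low and ZT0 ALDH-high it was 0.955. The other 4 pairs lay between 0.806 and 0.828, with 0.812 for the 2 ZT12 arrays. These correlations are across genes of single arrays, and genes are not independent replicates. After centring, 96.8% of probes agreed within 2-fold in the first pair, 87.1% in the second pair and 54.2% between the 2 ZT12 arrays. The same order held over 25379 probes of genes in none of the gene lists used here (0.975, 0.954 and 0.803 for these 3 pairs). The arrays that resemble each other also share a position on their slides. The ZT12 ALDH-high array lay at position 1_1 with its ZT0 ALDH-low counterpart, and the other pair at position 1_2. Within ZT12 the ALDH label and the slide position cannot be told apart, and whether a label was exchanged was not tested. Every direction below is therefore that of the array labelled ALDH-high.

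**Figure D1:**
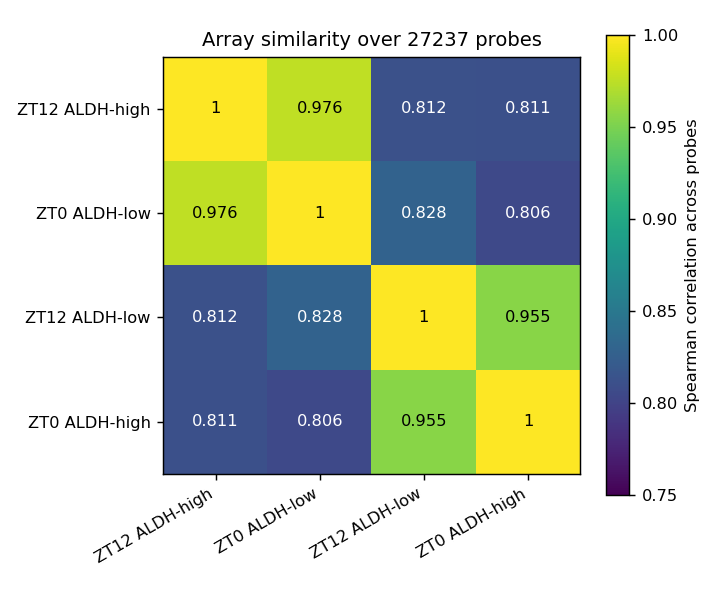
Spearman correlation between each pair of the 4 arrays, over 27237 probes well above background on all 4, on a colour scale from 0.75 to 1. The pairs ZT12 ALDH-high with ZT0 ALDH-low (0.976) and ZT12 ALDH-low with ZT0 ALDH-high (0.955) stand above the other 4 pairs, which lie between 0.806 and 0.828.

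The 2 arrays also differed in signal and scan quality. The 75th percentile of signal was 156.3 on the ALDH-high array and 458.8 on the ALDH-low array, while the median signal of the spike-in controls ran the other way, at 857.8 and 633.5. The scanner software marked the ALDH-high array for evaluation, with a spike-in slope of 0.789 against 0.944 on the ALDH-low array. Replicate spots of a probe differed by a median SD of 0.0431 and 0.0370 log2 units, which is precision within an array and says nothing about the spread between tumours. Of 56605 probes, 30446 were well above background on the ALDH-high array and 33086 on the ALDH-low array, and 0 spots were flagged as saturated.

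At ZT12, 5699 features were at least 2-fold higher on the ALDH-high array (28.8% of those measured) and 3532 at least 2-fold lower (17.9%). At 4-fold the counts were 2843 higher (14.4%) and 827 lower (4.18%). A further 1791 features were well above background on the ALDH-high array alone and 2291 on the ALDH-low array alone. The median difference of all measured features was 0.22, the middle 50% lay between -0.69 and 1.21, and the extremes were -4.27 and 7.60. The upper tail was the longer, with 303 features higher by 16-fold or more and 3 lower by as much. The split of higher and lower calls depended on the scaling. Higher features made up 61.7% of all calls as scaled here, 28.3% with each array scaled to its median, and 74.9% with the percentile taken over probes well above background on both arrays. The first of these alternatives moved every difference by -0.87 and the second by 0.31, so a list is read below against the median of all features, which moves with it. With arrays scaled to their medians the median of all features was -0.65.

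A feature with the same unscaled signal on both arrays has a difference of 1.55, since the 75th percentiles differ 2.93-fold. Of the 5699 features at least 2-fold higher, 3920 also had the higher unscaled signal on the ALDH-high array (68.8%), and so did all 2843 at least 4-fold higher. Differences followed the level. In the dimmest decile of features the median was 1.44, it was -0.56 in the second brightest decile, and it was -0.04 in the brightest. Among the 47 features with a signal of at least 100000 on both arrays the median difference was 1.51, close to that of equal signals. They include the ribosomal RNAs Rn18s and Rn28s1, Actb, S100a9 and Csf3r, and a difference near 1.55 at such brightness is given as measured.

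**Figure D2:**
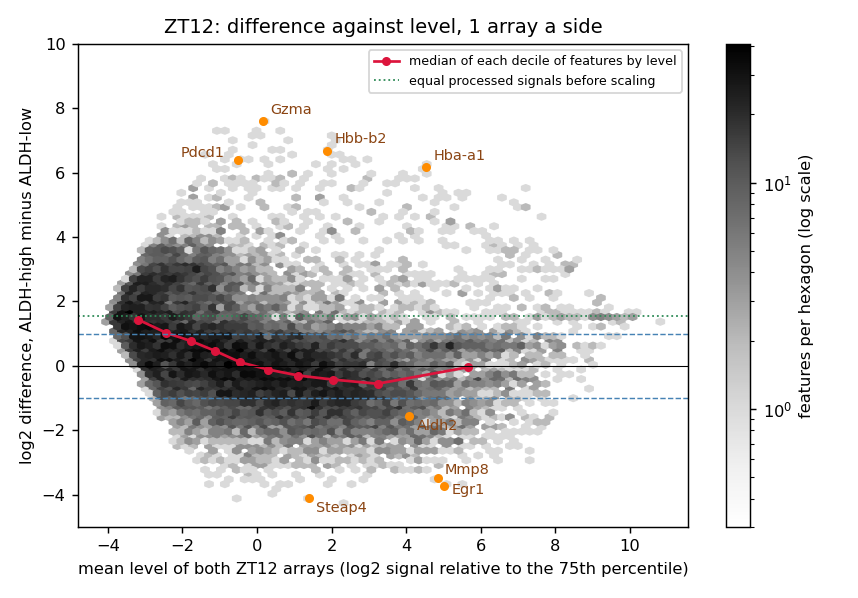
Difference at ZT12 (log2, ALDH-high minus ALDH-low array) against the mean level of both arrays (log2 signal relative to the 75th percentile) for 19784 features, 1 array a side; shading counts features on a log scale, dashed lines mark 2-fold, and the dotted line marks equal signals before scaling. The median of each decile by level (red) runs from 1.44 in the dimmest to -0.56 in the second brightest, and Gzma at 7.60 and Steap4 at -4.10 are among the outermost points.

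Among named genes of at least median level, the highest on the ALDH-high array were of 2 kinds, blood cell genes and genes with no place in any list. Gzma, granzyme A of cytotoxic lymphocytes, had signals of 2452 and 37.1, a 194-fold difference (7.60). The globin genes Hbb-b2, Hbb-bt, Hba-a2 and Hba-a1 lay between 6.16 and 6.69. The others of the 12 highest were Shank2 (7.26), Tmem52b (6.96), Zfp160 (6.89), Adcy6 (6.40), Syn3 (6.34) and the olfactory receptors Olfr1500 (6.02) and Olfr699 (5.98). Shank2 and Syn3 encode proteins of the synapse. Other probes of these genes gave smaller values where they were measured. The Shank2 probe read 2849 and 54.4, and a second Shank2 probe read 95.2 and 51.4 (2.44). The Syn3 probe read 8925 and 322, and a second read 117 and 59.4 (2.54). The second Adcy6 probe was not well above background on either array. The second Zfp160 probe, well above background on the ALDH-low array alone, read 18.0 and 82.0 (-0.63), the opposite direction.

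Several of those probes hold long runs of purines (A and G). The stretch of 30 bases richest in purines is shown for 3 of them and, for comparison, for Gzma, with the run GAGAG in capitals.
Shank2: agaagGAGAGAGAGgaagaggGAGAGtgag
Syn3: aaaGAGAGAGaaaagGAGAGAGAGAGacag
Adcy6: aggcagagGAGAGgaagatcagctggtcca
Gzma: gtgtctgatcacaaataaaatcaacttgaa
Purines fill 29 of the 30 bases in the Shank2 stretch, 29 in Syn3, 22 in Adcy6 and 17 in Gzma. Gzma had the fewest of the 12 highest genes. The globin probe of Hbb-b2 had 22, as many as Adcy6, those of Hba-a1 and Hba-a2 20 and that of Hbb-bt 18. Tmem52b, Zfp160, Olfr1500 and Olfr699 had 21, 24, 25 and 22. Across all measured features, 5.30% had a probe of at least 65% purine, against 37.6% of the 303 features at least 16-fold higher (114) and 2.90% of those at least 4-fold lower. The motif GAGAG, searched on the probe strand, was in 6.66% of all probes and 33.7% of those 303 (102). In the decile of features with most purine (65.5% on average), 27.6% were at least 4-fold higher, against 8.19% in the decile with least. The 25 features at least 16-fold higher that belong to a cell type list had a median purine share of 45.0%, with 3 at or above 65%. This property was chosen after the values were seen, and its part in the differences was not tested.

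**Figure D3:**
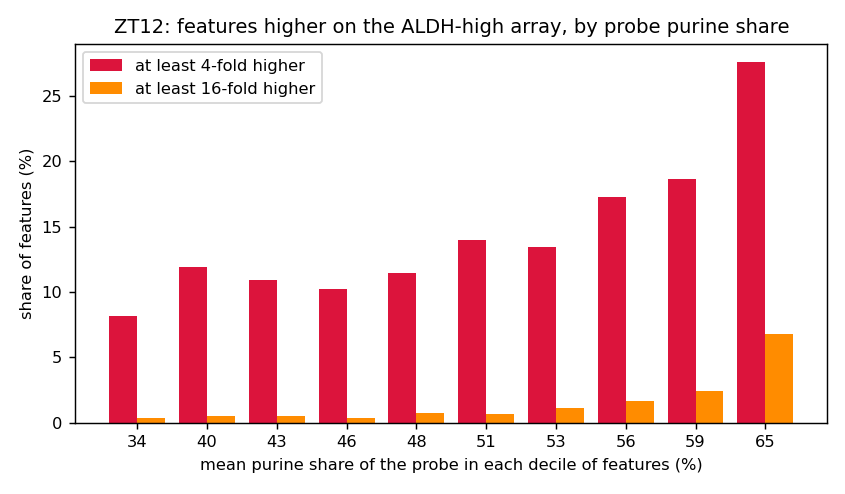
Share of features (%) at least 4-fold higher (red) and at least 16-fold higher (orange) on the ZT12 ALDH-high array, in deciles of the 19784 features ordered by the purine share of their probe; the horizontal axis gives each decile's mean share. The 4-fold share is 8.19% in the lowest decile and 27.6% in the highest, and the 16-fold share 0.35% and 6.77%.

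T and NK cell markers were higher on the ALDH-high array. Of 34 measured, 29 were at least 2-fold higher and 0 lower, with a median of 2.73, beside 28.8% and 17.9% and a median of 0.22 over all features. The other 12 of the 46 on the array were well above background on the ALDH-high array alone. Il2rb, the shared beta chain of the receptors for interleukins 2 and 15, had signals of 729 and 37.0 (5.85). Gzmb, granzyme B, had 627 and 33.4 (5.78). Zap70, the kinase recruited to the T cell receptor, had 419 and 22.9 (5.75). All 3 were dim on the ALDH-low array. The receptor subunit Cd3g, at 447 against a signal of 18.4 that was not well above background, was at least 71.5-fold higher, and the cytokine Ifng, at 203 against 4.99, at least 39.4-fold. A fold given as "at least" sets the brighter signal against the lowest signal well above background on the other array, or the dim probe's own signal where that is higher. The exceptions included Cd247 at 1006 and 2802 (0.07) and the chemokine receptor Ccr7 at 1391 and 3261 (0.32). Cd4 had 279 and 1108 (-0.44), and another Cd4 probe had the opposite sign. The summed level of all 46 markers was 136.2 times the 75th percentile on the ALDH-high array and 31.3 times on the ALDH-low array. In RNA from bulk fractions, fewer cells of a type and less RNA per cell cannot be told apart.

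Markers of B cells and their precursors had the highest median of all lists. Of 20 measured, 16 were higher by 2-fold or more and 0 lower (median 2.97), and 4 more were well above background on the ALDH-high array alone. Vpreb3 had signals of 1071 and 30.8 (6.67). Cd79b, a signalling chain of the B cell receptor, had 777 and 46.4 (5.62), and Ms4a1, which encodes CD20, had 2409 and 146 (5.60). Igll1, of the surrogate light chain of pre-B cells, was at least 17.5-fold higher (90.2 against 3.40). The precursor gene Igll1 and the B cell genes Cd79b and Ms4a1 were thus high on the same array, while Btla (-0.33) and Cd83 (0.71) were within 2-fold. Rag1, Rag2 and Blk were not well above background on either array. The summed level of the list was 74.9 on the ALDH-high array and 9.99 on the ALDH-low array.

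Among checkpoint genes, Pdcd1, the gene of the PD-1 receptor of T cells, had signals of 1009 and 35.4 (6.39), and Tnfrsf18, the gene of the costimulatory receptor GITR, 522 and 180 (3.09). Cd274, which encodes the ligand PD-L1, had 1335 and 9965 (-1.35). In all, 5 of 14 measured were higher by 2-fold or more and 2 lower, shares near the 28.8% and 17.9% of all features (median -0.07, which stayed below the all-feature median under each of the 12 alternatives).

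The erythroid list was highest in its globins and divided elsewhere. Hba-a1, the gene of alpha globin, had signals of 30825 and 1263 (6.16), and its second probe 10973 and 316 (6.67). Hbb-b2, a beta globin gene, had 5867 and 167 (6.69), and Hbb-b1 826 and 28.5 (6.41). The haem synthesis enzyme Alas2 was at least 44.4-fold higher (228 against 4.70) and the anion exchanger Slc4a1 at least 8.01-fold (41.8 against 15.3). Beyond these the list was divided. Nfe2, a transcription factor also used by other myeloid cells, had 588 and 12933 (-2.91), and the mitochondrial iron importer Slc25a37 had 517 and 7176 (-2.24). Of 20 measured, 9 were higher by 2-fold or more and 4 lower (median 0.93), and 15 of 38, among them Klf1, Gata1 and Ahsp, were not well above background on either ZT12 array. The summed level was 553.9 and 146.0 times the 75th percentile. The second Hba-a1 probe and the Hbb-b2 probe, which carry the largest globin differences, read as follows in mm9 design, 60 bases each.
Hba-a1: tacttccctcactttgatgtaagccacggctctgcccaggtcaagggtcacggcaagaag
Hbb-b2: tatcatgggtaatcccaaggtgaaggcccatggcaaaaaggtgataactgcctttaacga
The Hba-a1 probe lies at chr11:32183955-32184014. The brightest probes of Hba-a1 and Hba-a2 share a run of 59 of 60 bases, so these near-identical copies are not separate measurements, while the 3 beta globin probes share at most 7.

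The list of mast cell, basophil and eosinophil genes leaned to the ALDH-high array, with exceptions. Prss34, a basophil protease, had signals of 231 and 51.7 (3.72), Mcpt8, another, 541 and 147 (3.44), and the mast cell carboxypeptidase Cpa3 72.8 and 24.6 (3.12). Siglecf, a receptor of eosinophils, had 163 and 3677 (-2.94), and the eotaxin receptor Ccr3 27.3 and 188 (-1.23). Of 15 measured, 10 were higher by 2-fold or more and 2 lower (median 2.43), beside 28.8% and 17.9% of all features. Of named genes in the dimmest quintile of level, 54.2% were at least 2-fold higher. After loess between the arrays on level, 9 of the list were higher and 2 lower (median 1.53). The summed levels were close, at 16.6 and 13.1, and Tpsab1, Il13 and Epx were not well above background on either array.

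Macrophage genes went both ways. The complement genes of tissue macrophages C1qb (2970 and 932, 3.23), C1qa (4351 and 1395, 3.19) and C1qc (9582 and 3779, 2.90) were higher on the ALDH-high array, as was Cx3cr1, the fractalkine receptor (1845 and 972, 2.48). Slc40a1, the iron exporter ferroportin, was lower (362 and 8199, -2.95), with Nos2, the inducible nitric oxide synthase (1346 and 19340, -2.29), and Cd14, the endotoxin co-receptor (9542 and 89730, -1.68). Neither Csf1r (-0.27, with probes of opposite sign) nor Adgre1, which encodes F4/80 (0.58), reached 2-fold. In all, 14 of 30 were higher by 2-fold or more and 4 lower (median 0.93), and the list stayed above the all-feature median in 11 of 12 alternatives.

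Genes of antigen presentation by MHC class II were higher. Cd74, the invariant chain, had signals of 19076 and 8280 (2.76). H2-DMb1, which loads peptides, had 5049 and 2287 (2.70), and H2-Aa, an alpha chain, 836 and 473 (2.37). Their master regulator Ciita had 1222 and 1015 (1.82), not far from the value of equal signals. Of 20 measured in the list, 13 were at least 2-fold higher and 1 lower, the dendritic cell receptor Clec9a (26.3 and 176, -1.20). Endothelial genes were dim and 6 of 11 were at least 2-fold higher and 0 lower, with Nos3, the endothelial nitric oxide synthase, at 257 and 118 (2.67). Beside this, 28.8% of all features and 54.2% of named genes in the dimmest quintile of level were at least 2-fold higher. With arrays scaled to their medians, 4 endothelial genes were higher and 2 lower (median 0.24). Of this list Pecam1 (-0.04) was within 2-fold, and Tek, Tie1, Cldn5 and 4 others of 21 were not well above background on either array.

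Neutrophil genes were mostly lower on the ALDH-high array. In the list of granule proteins 17 of 25 were at least 2-fold lower and 1 higher (median -1.78), or 11 and 3 with each array divided by its spike-in slope (median -0.69). Mmp8, the collagenase of specific granules, had signals of 1353 and 44039 (-3.47). Cd177 had 167 and 4984 (-3.35), and Ly6g, the surface antigen used to stain mouse neutrophils, 153 and 3752 (-3.06). The azurophil granule genes, which are made at the promyelocyte stage, did not share this. Elane (374 and 1072, 0.04), Mpo (2177 and 6291, 0.02), Prtn3 (144 and 626, -0.57) and Ctsg (643 and 2628, -0.48) were all within 2-fold. The alarmins S100a9 (226661 and 275234, 1.27) and S100a8 (93446 and 184419, 0.57) lay at the top of the signal range. Their sign depended on the scaling, S100a9 being at -0.18 after quantile normalization and S100a8 below 0 in 4 of the 12 alternatives, down to -0.65. The summed level of the list, to which its brightest members contribute most, was 3519 and 4256 times the 75th percentile.

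Receptors of mature neutrophils had the lowest median of all lists, -2.20, with 19 of 22 at least 2-fold lower and 2 higher. Mrgpra2b had signals of 749 and 21659 (-3.30) and Mrgpra2a 636 and 18110 (-3.28). Fpr1, the formyl peptide receptor, had 918 and 25457 (-3.24), and Cxcr2, the chemokine receptor for exit from the marrow, 1184 and 31578 (-3.18). Those are receptors of migration and sensing. The 2 higher were the G-CSF receptor Csf3r (132163 and 119497, 1.70) and the integrin Itgam (61799 and 22118, 3.04), but the second Itgam probe had the opposite sign (69.4 and 324, -0.67). Leukocyte genes shared by all lineages were lower too, 16 of 27 by at least 2-fold and 1 higher (median -1.20), or 9 and 2 with the spike-in slope and 25 and 1 with arrays scaled to their medians. Ptprc, the gene of CD45, had 3049 and 45541 (-2.35), and of its 6 measured probes 5 lay between -2.35 and -1.29 and the sixth at 1.01. Steap4, a metalloreductase, was the lowest named gene of at least median level (99.3 and 5005, -4.10), and Lrg1, a glycoprotein of neutrophil granules, had 1886 and 68322 (-3.63).

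**Figure D4:**
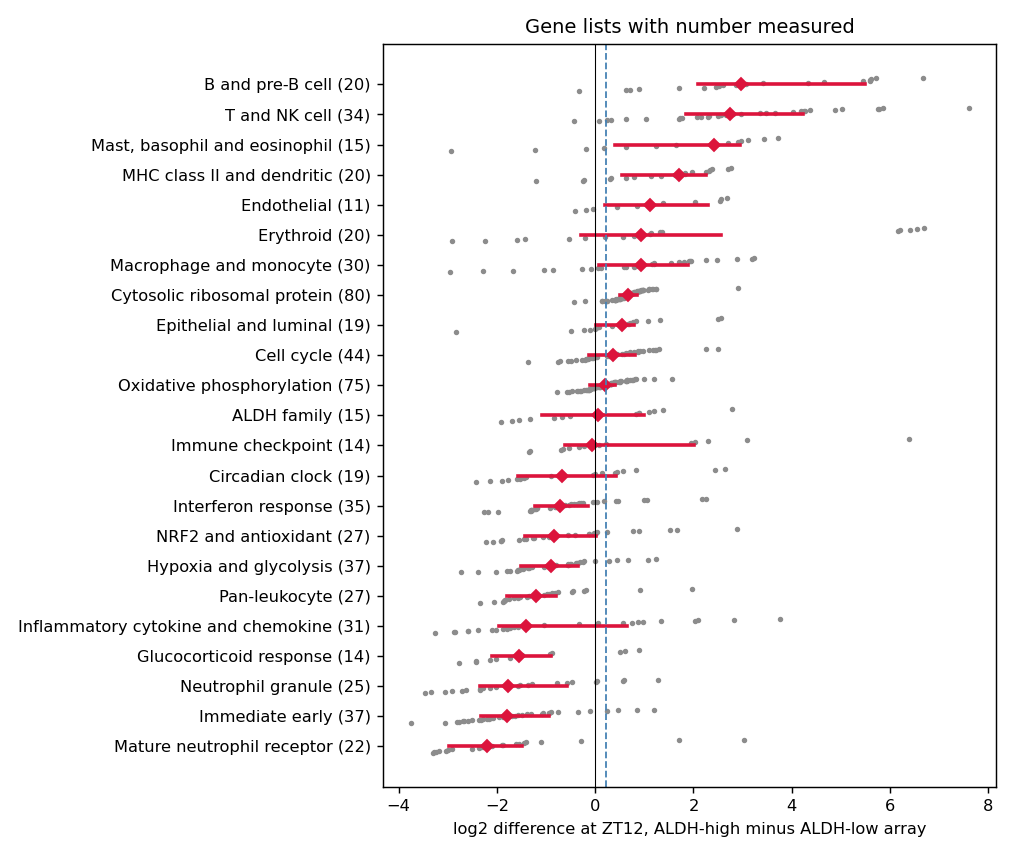
Log2 differences at ZT12 (ALDH-high minus ALDH-low array) of the measured members of 23 gene lists; grey points are genes, red diamonds medians, red bars the middle 50%, the dashed line the median of all features (0.22), and the number measured is in brackets. Lymphocyte lists lie highest (medians 2.97 and 2.73) and mature neutrophil receptors lowest (-2.20).

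Immediate early genes, which are transcribed within minutes of a stimulus, were lower on the ALDH-high array. Of 37 measured, 27 were at least 2-fold lower and 1 higher (median -1.79). Egr1, a zinc finger factor, had signals of 1391 and 54787 (-3.75), next to Steap4 among named genes of at least median level. Klf2 had 1687 and 40943 (-3.05), Klf6 3474 and 71459 (-2.81), and Dusp1, which dephosphorylates MAP kinases, 4857 and 98028 (-2.78). Members of the AP-1 complex followed, with Junb at 10105 and 179124 (-2.59) and Fos at 3821 and 57665 (-2.36). Arc (47.9 and 61.2, 1.20) and Myc (236 and 386, 0.84, with another probe of opposite sign) lay the other way. Beside them, the leukocyte and neutrophil lists were lower on the same array. The part of cell types in the early gene values was not tested. The glucocorticoid list, which shares Dusp1, Per1 and Lcn2 with other lists, had 9 of 14 at least 2-fold lower and 0 higher (median -1.56), with Cebpd at 3446 and 54712 (-2.44) and Tsc22d3, which encodes GILZ, at 1350 and 17462 (-2.14).

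Promoters of early genes are known for the CArG box, bound by SRF, and the cAMP response element. Windows of 300 bases in RefSeq (GRCm38.p6), 250 before and 50 after each start, were searched on both strands. TGACGTCA was in the windows of 4 of 29 measured early genes with a window (13.8%; Dusp1, Btg2, Maff and Ppp1r15a) and of 2.03% of 27025 genes. A CArG box was in 3 (10.3%; Egr2, Dusp5 and Zfp36) against 1.81%. All 7 were at least 2-fold lower, but so were 22 of the 29 in all. The 250 bases before the start are shown for the lowest member of each kind, with the match in capitals, Dusp1 (chr17:26508473-26508722, minus strand, match 143 bases before the start) and Zfp36 (chr7:28379229-28379478, minus strand, 58 bases before).
Dusp1: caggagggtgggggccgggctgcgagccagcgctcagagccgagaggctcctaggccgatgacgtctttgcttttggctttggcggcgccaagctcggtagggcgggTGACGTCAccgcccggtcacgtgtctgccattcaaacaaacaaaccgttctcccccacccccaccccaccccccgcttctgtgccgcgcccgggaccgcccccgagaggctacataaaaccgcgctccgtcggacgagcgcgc
Zfp36: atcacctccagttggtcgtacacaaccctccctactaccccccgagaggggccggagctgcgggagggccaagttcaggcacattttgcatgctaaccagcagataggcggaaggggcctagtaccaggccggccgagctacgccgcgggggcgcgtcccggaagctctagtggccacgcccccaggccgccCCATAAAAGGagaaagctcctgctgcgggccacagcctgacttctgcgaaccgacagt
Zfp36, which encodes the mRNA-destabilising protein tristetraprolin, had signals of 2354 and 43920 (-2.67). A match describes the letters of the window and not binding.

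Cytokine and chemokine genes were mostly lower, 19 of 31 by at least 2-fold with 5 higher (median -1.41). Nfkbiz, an inducible co-regulator of NF-kappaB, had signals of 406 and 11458 (-3.27). Saa3, an acute phase protein, had 8730 and 188816 (-2.88), Osm, oncostatin M, 2898 and 61809 (-2.86), and Cxcl2, a neutrophil chemoattractant, 2547 and 44946 (-2.59). Il1b had 15031 and 178991 (-2.02). The genes on the other side draw monocytes and T cells or have other roles. Lif had 135 and 29.4 (3.75), Cxcl9, a ligand of CXCR3, 159 and 65.9 (2.82), and Ccl7, a monocyte chemoattractant, 1083 and 746 (2.09). Csf3 (95.3 and 826, -1.56) was also lower. An NF-kappaB site, searched by name, was in a window of 9 of 22 genes (40.9%) against 5.14% of all genes. Of those 9 genes 6 were at least 2-fold lower, beside 13 of the 22 in all. The windows of Cxcl2 (chr5:90903649-90903898, plus strand, overlapping matches 97 and 96 bases before the start) and Tnfaip3 (chr10:19015411-19015660, minus strand, matches at 125 and 12) were chosen as the lowest members with a match. The other window listed for Tnfaip3 has 0 matches.
Cxcl2: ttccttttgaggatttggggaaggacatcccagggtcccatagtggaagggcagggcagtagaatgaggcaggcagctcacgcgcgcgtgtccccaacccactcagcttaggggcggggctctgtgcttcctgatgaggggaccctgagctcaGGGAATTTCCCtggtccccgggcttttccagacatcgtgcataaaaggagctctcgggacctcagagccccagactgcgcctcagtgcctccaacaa
Tnfaip3: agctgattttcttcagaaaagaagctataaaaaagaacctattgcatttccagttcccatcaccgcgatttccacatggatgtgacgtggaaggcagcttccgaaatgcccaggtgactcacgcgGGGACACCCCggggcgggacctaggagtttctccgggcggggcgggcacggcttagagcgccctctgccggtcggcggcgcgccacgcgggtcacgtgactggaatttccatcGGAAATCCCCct
Tnfaip3, the gene of the NF-kappaB inhibitor A20, had signals of 901 and 15845 (-2.58).

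Interferon response genes leaned lower by less as scaled here. Oas3 had signals of 88.2 and 1235 (-2.26), Oas2 1645 and 22014 (-2.19) and Ddx58, which encodes the RNA sensor RIG-I, 419 and 4854 (-1.98). Against these, the interferon gamma target Iigp1 had 390 and 240 (2.25) and Gbp6 47.2 and 30.8 (2.17). Of 35 measured, 12 were at least 2-fold lower and 4 higher (median -0.72), beside 17.9% and 28.8% of all features. The counts were 3 lower and 4 higher after loess, and 4 and 4 with the percentile over probes well above background on both arrays. With arrays scaled to their medians they were 26 and 2. The list median stayed below that of all features in each of the 12 alternatives.

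Genes of hypoxia and glycolysis included many that were lower, but the brightest glycolytic enzymes were within 2-fold. Pfkfb4 and Pfkfb3, which set the level of the glycolytic activator fructose 2,6-bisphosphate, had signals of 961 and 18845 (-2.74) and of 2107 and 32323 (-2.39). The histone demethylase Kdm3a had 663 and 7859 (-2.01) and the MYC antagonist Mxi1 1246 and 12710 (-1.80). By contrast Gapdh (0.44, with probes of opposite sign), Eno1 (-0.23), Ldha (-0.24) and Tpi1 (-0.36) were within 2-fold. In all, 17 of 37 were at least 2-fold lower and 2 higher (median -0.91), beside 17.9% and 28.8% of all features. The counts were 7 and 7 with each array divided by its spike-in slope (median -0.34). With arrays scaled to their medians they were 31 and 0. The hypoxia element ACGTGC was in a window of 17 of 33 genes (51.5%) against 6.68% of all genes, and of 8 of the 16 lower genes with a window. Of the windows listed for Pfkfb3 the other has 0 matches, and the one shown (chr2:11553930-11554179, minus strand) holds it 60 bases before the start.
Pfkfb3: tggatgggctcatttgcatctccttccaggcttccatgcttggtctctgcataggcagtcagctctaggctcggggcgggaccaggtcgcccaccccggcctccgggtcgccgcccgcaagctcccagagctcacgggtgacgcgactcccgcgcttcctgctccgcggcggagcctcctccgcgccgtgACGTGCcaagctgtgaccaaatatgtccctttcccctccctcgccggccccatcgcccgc
Antioxidant genes of NRF2 were divided, 11 of 27 at least 2-fold lower and 3 higher (median -0.83). With the spike-in slope the counts were 7 and 5 (median -0.03). The pentose phosphate enzyme G6pdx had 1724 and 23521 (-2.22) and Osgin1 943 and 11760 (-2.09), and Gpx2, an epithelial glutathione peroxidase, 191 and 76.1 (2.88).

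Of 19 clock genes measured, 8 were at least 2-fold lower, 2 higher and 9 within 2-fold (median -0.68). The period genes Per1 (1036 and 16302, -2.42) and Per2 (131 and 1680, -2.13) were lower, with Nfil3, a repressor of D-box genes (4360 and 47746, -1.90), and Bhlhe40 (884 and 7050, -1.44). The kinase Csnk1e (269 and 2397, -1.60), Ciart (79.7 and 674, -1.53) and Cry2 (98.0 and 768, -1.42) were lower too, and another probe of Ciart and of Cry2 had the opposite sign. Rora, which activates Arntl, had 474 and 224 (2.63) and Per3 162 and 88.1 (2.43). Arntl itself, the gene of BMAL1 (36.8 and 79.6, 0.44), its partner Clock (0.57), Dbp (-0.05) and Tef (-0.01) were within 2-fold, and Arntl2 (0.39), Nr1d2 (0.84), Cry1 (-0.90) and Csnk1d (-0.68) were so too. Nr1d1 was well above background on the ALDH-low array alone, and Hlf and Bhlhe41 on the ALDH-high array alone. The E-box CACGTG, bound by CLOCK and BMAL1, was in a window of 4 of 14 genes (28.6%; Per1, Cry1, Ciart and Tef) against 8.09% of all genes. The windows of Per1 (chr11:69098699-69098948, plus strand, match 166 bases before the start) and Ciart (chr3:95882229-95882478, minus strand, matches at 116, 58 and 44) were picked as the measured clock genes with a match that were at least 2-fold lower. The other window listed for Per1 has 0 matches.
Per1: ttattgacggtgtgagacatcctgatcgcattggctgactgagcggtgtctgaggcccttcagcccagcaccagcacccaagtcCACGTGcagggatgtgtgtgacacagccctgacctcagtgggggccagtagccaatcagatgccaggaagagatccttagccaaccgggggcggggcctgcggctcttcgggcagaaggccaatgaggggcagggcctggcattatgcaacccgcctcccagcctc
Ciart: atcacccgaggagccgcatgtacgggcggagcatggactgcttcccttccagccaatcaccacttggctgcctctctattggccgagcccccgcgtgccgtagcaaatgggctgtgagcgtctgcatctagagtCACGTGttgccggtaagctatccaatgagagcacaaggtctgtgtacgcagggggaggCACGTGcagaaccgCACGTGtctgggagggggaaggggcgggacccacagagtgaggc

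**Figure D5:**
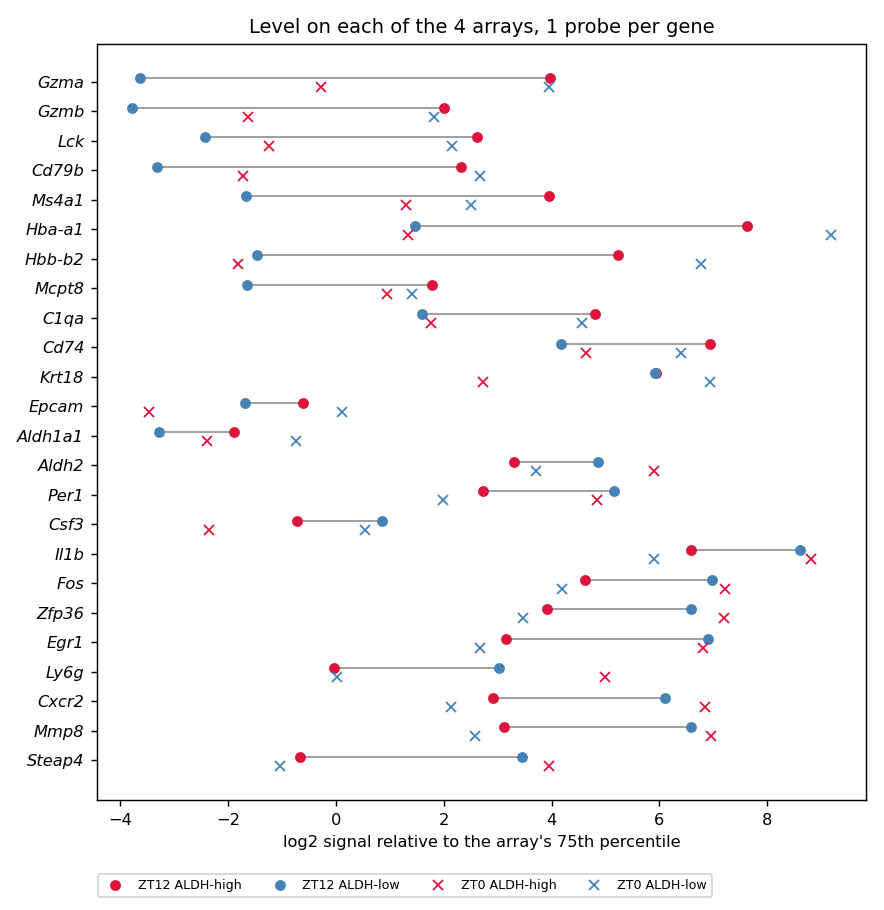
Level (log2 signal relative to the array's 75th percentile) of 24 named genes on the 4 arrays, 1 probe per gene and 1 array per point; circles are ZT12 (joined by a line), crosses ZT0, red ALDH-high and blue ALDH-low. Gzma and Hba-a1 lie 7.60 and 6.16 higher on the ZT12 ALDH-high array, Egr1 and Mmp8 3.75 and 3.47 lower, and the Krt18 circles coincide (0.02).

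Of the epithelial genes, which mark the carcinoma cells, most that were measured on both ZT12 arrays were within 2-fold. Krt18 had signals of 9511 and 27611 (0.02) and Krt8 3203 and 8930 (0.07), with a second Krt8 probe at -0.02. Epcam had 102 and 142 (1.08). Wfdc2 (5106 and 16213, -0.11) and Gata3, a luminal transcription factor (956 and 2702, 0.05), were also close. Of 19 measured, 4 were at least 2-fold higher and 1 lower, beside 28.8% and 17.9% of all features. A further 4 were well above background on the ALDH-low array alone and 0 on the ALDH-high array alone. The median of the 19 was 0.55 and turned negative (-0.32) with arrays scaled to their medians, where that of all features was -0.65. The summed level was 137.0 on the ALDH-high array and 140.3 on the ALDH-low array, against 30.7 and 273.5 on the ZT0 ALDH-high and ALDH-low arrays. Over 24 epithelial probes ZT12 ALDH-high correlated at 0.957 with ZT0 ALDH-low, as over all probes, but ZT12 ALDH-low correlated at 0.829 with ZT0 ALDH-high and at 0.852 with ZT12 ALDH-high. Basal genes had 5 of 20 higher, near the 28.8% of all features, and 1 lower (median 0.24). A further 5 were well above background on the ALDH-low array alone and 0 on the ALDH-high array alone. The counts were 4 higher and 4 lower after loess, and 2 and 6 with arrays scaled to their medians (median -0.63). Trp63, the p63 factor, had 4579 and 3310 (2.02) and Krt6a 33.7 and 385 (-1.96).

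Of 22 measured genes tied to tumour-initiating cells, 4 were higher by 2-fold or more and 5 lower (median 0.17), beside 28.8% and 17.9% of all features. With arrays scaled to their medians 1 was higher and 10 lower (median -0.70). Lgr5, a receptor of epithelial stem cells, had signals of 107.04 and 21.9 (3.84). Cd24a had 1662 and 20841 (-2.10) and Cd44 4315 and 35062 (-1.47), and both are also carried by leukocytes. Kit had 70.3 and 1479 (-2.84, with another probe of opposite sign). Sox9 (86.6 and 160, 0.66) and Procr (199 and 523, 0.16) were within 2-fold, and Prom1, the gene of CD133, was well above background on the ALDH-low array alone.

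The ALDH genes, whose activity set the sort, had members on both sides. Of 15 measured, 4 were higher by 2-fold or more and 4 lower (median 0.06), beside 28.8% and 17.9% of all features. The counts were 1 higher and 7 lower with arrays scaled to their medians (median -0.82), 2 and 4 after quantile normalization, 2 and 3 after loess, and 7 and 4 with the percentile over probes well above background on both arrays. The median lay below that of all features in each of the 12 alternatives. Aldh1l2, a mitochondrial folate enzyme, had signals of 124 and 53.0 (2.78). Aldh1a1, the retinaldehyde dehydrogenase most often tied to the ALDEFLUOR reaction, had 42.0 and 47.4 (1.38), a dim gene whose unscaled signals were nearly equal. Aldh1b1 had 61.3 and 78.7 (1.19) and Aldh1l1 96.5 and 133 (1.09). Each of these 3 had the lower unscaled signal on the ALDH-high array. The 4 lower genes included Aldh2, the mitochondrial acetaldehyde enzyme, at 1552 and 13359 (-1.55), Aldh3b1 at 1641 and 18276 (-1.92) and Aldh4a1, of proline breakdown, at 230 and 1701 (-1.34). Aldh3a2, of fatty aldehydes, had 298 and 2838 (-1.70), and its second measured probe 388 and 935 (0.28). Aldh9a1 (0.90), Aldh8a1 (0.90), Aldh18a1 (0.83), Aldh7a1 (0.06), Aldh6a1 (-0.52), Aldh3a1 (-0.68) and Aldh16a1 (-0.83) were within 2-fold. Aldh1a2 was at least 3.41-fold lower on the ALDH-high array (15.1, not well above background, and 151), and Aldh1a3 was well above background on the ALDH-low array alone. Of 11 measured genes of retinoid transport, metabolism and response, 2 were higher by 2-fold or more and 4 lower. These counts were 2 and 1 after loess, and 1 and 6 with arrays scaled to their medians. The retinol importer Stra6 had 1809 and 236 (4.49), measured by 1 probe of 65% purine, and the receptor Rara 1815 and 28938 (-2.44).

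In the developmental pathways single members stood out rather than whole lists. Among Wnt receptors and targets 6 of 20 were at least 2-fold higher, close to the 28.8% of all features, and 2 lower, with the transcription factor Lef1 at 422 and 32.8 (5.24) and the receptor Fzd7 at 821 and 246 (3.29). Ctnnb1, which encodes beta-catenin, had 801 and 8233 (-1.81). Of 8 measured Wnt ligands Wnt5a (41.4 and 40.5, 1.58) and Wnt7a (33.8 and 45.8, 1.11) were higher and Wnt5b (35.0 and 404, -1.98) lower, and Wnt10a had 57.3 and 323 (-0.94). Neither of the higher ligands passed 2-fold after loess (0.61 and 0.10) or with arrays scaled to their medians (0.71 and 0.24). By their brightest probes the Notch receptors ran in opposite ways, Notch1 at 2598 and 399 (4.26) and Notch2 at 445 and 6999.8 (-2.42). These Lef1 and Notch1 probes had 66.7% and 65% purine. A second Notch1 probe, well above background on the ALDH-low array alone, read 16.2 and 40.8 (0.22). In the TGF-beta list 8 of 26 were at least 2-fold lower and 4 higher (median -0.83), beside 17.9% and 28.8% of all features. Its counts were 5 and 4 with the percentile over probes well above background on both arrays. With arrays scaled to their medians its counts were 18 and 3. Its inhibitor of differentiation Id1 had 418 and 5027 (-2.03) and the common mediator Smad4 651 and 6486 (-1.76), while the ligand Bmp4 had 231 and 49.995 (3.76) and Smad6, an inhibitory SMAD, 282 and 265 (1.64). The receptor Bmpr2 had a probe at 4.03 (65% purine) and another at -0.97. Of the YAP and TEAD genes 6 of 17 were lower and 3 higher (median -0.70), with the clotting initiator F3 at 427 and 6514 (-2.38) and Ankrd1 at 49.0 and 409 (-1.51). These counts were 4 and 4 with the percentile over probes well above background on both arrays. With arrays scaled to their medians they were 12 and 2.

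Among the genes of cell death, 8 of 16 BCL2 family members were at least 2-fold lower and 3 higher (median -0.80). Beside this, 17.9% and 28.8% of all features were lower and higher. The family's counts were 3 and 3 with the spike-in slope (median -0.17), and 10 and 0 with arrays scaled to their medians. Pmaip1, the gene of the death-promoting protein NOXA, had signals of 641 and 11141 (-2.57) and Mcl1, a survival protein of neutrophils, 6354 and 65835 (-1.82). Bcl2 itself had 293 and 291 (1.56), the value of equal signals. The metalloproteinases went both ways. Mmp9, like Mmp8 a granule enzyme of neutrophils, had 997 and 19035 (-2.70), while the macrophage elastase Mmp12 had 1587 and 947 (2.30) and the inhibitors Timp4 137 and 37.7 (3.42) and Timp3 149 and 52.9 (3.04).

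The heat shock genes were near the all-feature median with a few apart. Hspb1, a small chaperone, had signals of 1513 and 452 (3.30), and Hspa4l 965 and 595 (2.25, with another probe of opposite sign). Hspa2 had 108 and 1593 (-2.33). Of 24 measured, 6 were higher and 2 lower (median 0.39), near or below the 28.8% and 17.9% of all features. The counts were 2 and 9 with arrays scaled to their medians (median -0.48), and 11 and 3 with the spike-in slope (median 0.84). The core of the heat shock element, GAANNTTC, was in a window of 11 of 19 genes (57.9%) against 9.04% of all genes. It was in a window of 5 of the 6 higher genes and 1 of the 2 lower genes. In the 250 bases before the start alone the shares were 36.8% and 7.73%. In Hspb1 (chr5:135887669-135887918, plus strand) it lies 117 and 97 bases before the start.
Hspb1: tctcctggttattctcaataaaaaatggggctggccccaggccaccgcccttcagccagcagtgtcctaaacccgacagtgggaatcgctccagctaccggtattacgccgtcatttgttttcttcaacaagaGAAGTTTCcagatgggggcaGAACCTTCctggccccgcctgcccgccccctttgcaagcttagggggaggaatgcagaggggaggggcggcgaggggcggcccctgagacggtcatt
Of 30 genes of the unfolded protein response 8 were higher, near the 28.8% of all features, and 10 lower, beside 17.9% (median -0.24, or 0.29 after loess between the arrays). Dnajb9, a target of the IRE1 branch, had 413 and 8535 (-2.82), and Sdf2l1, an endoplasmic reticulum chaperone component, 474 and 285 (2.29).

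Of 80 cytosolic ribosomal protein genes 8 were at least 2-fold higher and 0 lower, and their middle 50% lay between 0.51 and 0.84 (median 0.66, or -0.21 with arrays scaled to their medians). Of 75 genes of oxidative phosphorylation 3 were higher and 0 lower (median 0.20), of 38 of the proteasome 3 and 0 (median 0.13), and of 44 of the cell cycle 7 and 1 (median 0.37). The last 3 medians turned negative with arrays scaled to their medians (-0.67, -0.74 and -0.51). The median of all features was then -0.65, so places relative to it did not change. With each array divided by its spike-in slope, the median was 2.19 for the ribosomal proteins, with 79 of 80 higher, and 1.11 for oxidative phosphorylation, with 44 of 75 higher. The median of all features was 0.32 in that setting. As scaled here, all these shares are below the 28.8% and 17.9% of all features.

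Features without a gene symbol leaned to the ALDH-high array. The median was -0.09 over 13055 named genes, 0.79 over 4886 predicted genes and clones and 0.94 over 1843 lincRNA loci. In the dimmest quintile of level the medians were closer, at 1.13, 1.53 and 1.32, and in the brightest they were -0.62, 0.51 and 0.02. Known noncoding RNAs went both ways. Neat1, the scaffold of paraspeckles, had signals of 298 and 5560.0 (-2.67), and its second probe 143 and 2241 (-2.42). Meg3, an imprinted RNA, had 349 and 99.7 (3.36), and its 4 measured probes lay between 1.84 and 3.56. Kcnq1ot1, which silences an imprinted domain, had 37390.5 and 13922 (2.98). Terc, the telomerase RNA, had 25.3 and 31.2 (1.25), and Xist, which coats the inactive X chromosome, 39.1 and 217 (-0.92). The brightest Neat1 probe (mm9, chr19:5844123-5844182) and the brightest Meg3 probe (chr12:110783470-110783529) are shown because all measured probes of each gene agree in sign.
Neat1: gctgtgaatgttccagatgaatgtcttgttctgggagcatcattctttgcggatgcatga
Meg3: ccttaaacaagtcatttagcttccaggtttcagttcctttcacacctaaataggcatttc

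Beside the same contrast at ZT0, most ZT12 differences had the opposite sign. Of 5413 features at least 2-fold higher at ZT12 that were also measured at ZT0, 3361 were at least 2-fold lower there, 17 higher and 2035 within 2-fold. Of 3513 at least 2-fold lower at ZT12, 3053 were higher at ZT0, 33 lower and 427 within 2-fold. The cases of equal direction include the neutrophil chemoattractants Cxcl1 (-1.79 at ZT12 and -1.04 at ZT0) and Cxcl5 (-1.41 and -1.90), the collagenolytic protease Ctsk (-1.39 and -2.46), and the hyaluronan synthase Has2 (-1.18 and -2.17). Since each label and time is 1 array, whether the contrasts differ between the times was not tested.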

How the data were processed

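RNA of 4 sorted fractions was measured on 4 one-colour Agilent arrays, of which the 2 from ZT12 were compared. Per the file headers, the deposited intensity values are background-subtracted processed signals in Cy3 from Feature Extraction 10.7.1.1 on a grid of build mm9. The submitters' processing notes name version 9.5.1.1. The authors also deposited a table of linear intensity whose 4 columns share nearly one distribution, and its log2 was used as an alternative.

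Control spots and outlier spots were left out, spots of a probe were averaged, and log2 signals were set against each array's 75th percentile. The brightest probe stood for each gene name, and a difference needed a probe well above background on both arrays. With 1 array a side no test was possible, nothing covers the spread between tumours, and 2-fold and 4-fold marks are descriptive. Promoter windows came from RefSeq tables of GRCm38.p6, and no annotation of exons was used.

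The contrast, the members and the 52 gene lists were chosen with earlier results of these data known. Named genes were the 12 highest and 12 lowest with agreeing probes, in each list the 4 farthest in its direction and the 2 farthest the other way, the ALDH and clock genes and a few single genes, and the largest bounds. Not every such gene is printed, a few genes are not reported here, and any others were chosen after their values were seen. The computation used Python 3.11.15, pandas 2.3.3, numpy 2.4.6, scipy 1.17.1, statsmodels 0.14.6 and, for normexp, R 4.3.3 with limma 3.58.1, and was checked on simulated data. The scaling, background filter and probe choice were varied in 12 alternatives.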

Additional observations from a re-analysis of the deposited data

Results flagged for a closer look

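Several lists had medians of opposite sign at ZT12 and ZT0, each from 1 array a side, so the difference between the times was not tested. T and NK cell genes had a median of 2.73 at ZT12 and -1.87 at ZT0, and B cell genes 2.97 and -1.73. MHC class II genes had 1.70 and -1.19, and endothelial genes 1.11 and -1.83. In the other direction, neutrophil granule genes had -1.78 and 2.94, mature neutrophil receptors -2.20 and 3.16, and shared leukocyte genes -1.195 and 2.02. Immediate early genes had -1.79 and 2.51, glucocorticoid response genes -1.56 and 1.17, and inflammatory genes -1.41 and 1.13. Over single features, 3361 were at least 2-fold higher at ZT12 and at least 2-fold lower at ZT0, and 3053 the reverse. The ZT0 arrays are other samples, on another slide, with the labels at exchanged positions, and the part of position in these values was not tested.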

How the results depend on the processing

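No paired analysis was possible because each group had 1 array. The count of features at least 2-fold higher was 3115 with arrays scaled to their medians and 18496 with no background filter, and 2843 at a 4-fold threshold. The count at least 2-fold lower was 7909 with median scaling and 827 at 4-fold. Of 155 named genes at least 2-fold different, 151 kept their sign in every alternative that gave a value, which was all 12 except for Gbp6, Hbb-b1, Lif and Wnt7a, with 11 each. The 4 others were Cry2 (0.36) and Hspa4l (-0.55) with the mean of probes, S100a9 after quantile normalization (-0.1783) and in the authors' value table (-0.1773), and Terc after loess (-0.0579). The cause was not tested. Many of the named genes were chosen for their large differences. Median scaling moved every difference by -0.87, and the percentile over probes well above background on both arrays by 0.31. A gene past 2-fold cannot change sign under either of these, so the count of kept signs says little about how firm a sign is. One alternative, the percentile over averaged probes, was chosen after seeing the data. The spread between tumours is unknown, and dim features on the array marked for evaluation limit precision.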
